A study of Mus musculus with 30 samples.

Results

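The comparison set mouse retinas homozygous for the R90W substitution of the transcription factor CRX (R90W/W) against retinas that carried 1 R90W allele beside 1 WT allele of Crx (R90W/+), at postnatal day 10 (P10). The members were the 6 libraries with these genotype and age labels, 3 of each genotype, out of 30 libraries in the series. The genes were those with at least 5 CPM (a count divided by its library's total and scaled, so that libraries can be compared) in all 3 libraries of either genotype, which held for 11959 of the 12573 listed genes. The 3 P10 libraries of WT retinas served as the outer reference, and the 6 P10 libraries of E168d2/+ and E168d2/d2, which carry a frameshift that truncates CRX, served for a second allele. The 3 P10 libraries of E168d2neo/+ entered only 1 alternative setting, a single fit of all 6 groups of P10. The study describes that line as having the same frameshift with a neomycin cassette kept in an intron and less mutant protein. All groups shared the C57BL6/J background, and the study made its alleles as knock-ins at Crx itself, so that every cell of the animal carried them. Each library was a pool of 4 whole retinas from male and female mice, and the libraries of a group are treated as separate pools. In bulk samples of this kind, fewer cells of a type and less RNA per cell cannot be told apart.

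CRX is a homeodomain protein made in rods and cones, where it binds short DNA elements near photoreceptor genes and activates them together with partners such as NRL and NR2E3. The R90W substitution lies in the homeodomain and weakens DNA binding, and the study classes it as a hypomorphic allele. Phototransduction starts when an opsin absorbs light and activates the G protein transducin. Transducin releases the block on phosphodiesterase 6, the fall in cyclic GMP closes the CNG channels, and arrestins, recoverin and guanylate cyclase activating proteins end the response and reset it. The question posed by the heterozygote is which of these genes keep their WT level when 1 of the Crx alleles is intact.

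The mouse Crx gene (ENSMUSG00000041578.8) lies on the minus strand of chr7 in build mm9, from 16451296 to 16465317. Codon 90 is in exon 4 of 4, in the coding part at chr7:16453759-16453761. The reference coding strand around it is shown because this arginine codon is the one changed in both genotypes, with the codon in capitals (chr7:16453747-16453773, read 5′ to 3′ on the minus strand):
Crx codon 90: tggttcaagaatCGTagggcgaaatgc
Crx itself was measured at 1539, 1601 and 1481 CPM in WT replicates A, B and C, at 1784, 1700 and 1667 CPM in R90W/+, and at 1886, 1902 and 1837 CPM in R90W/W. The R90W/W libraries were all above the R90W/+ libraries, by 0.13 on the log2(CPM + 0.1) scale (SE 0.05, n = 3 and 3, limma adjusted p = 0.087). With quantile normalization the adjusted p was 0.025, and without R90W/+ replicate A it was 0.015. Under every other alternative tried it stayed above 0.05, such as 0.25 with median log-ratio scaling and 0.12 with the replicate letter as a block. A substitution need not alter the transcript's level, so this value does not check the labels. Of the 50 genes flanking Crx on chr7, the 25 nearest tested on each side, 0 passed both limits described below. Over all genes tested 1.07% passed, so a count of 0 among 50 says little. At an FDR of 0.05 alone, 7 of the 50 were lower and 8 higher in R90W/W, beside 10.3% and 14.6% of all genes. Their median difference of 0.04 equalled that of all genes tested.

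The CPM worth of a single read put the depth at 16.6 to 20.3 M reads on genes in R90W/+, 18.8 to 26.2 M in R90W/W and 13.9 to 17.1 M in WT. R90W/+ replicate A stood apart from the others of its group: 158 genes lay at least 0.5 log2 units from the mean of the other R90W/+ libraries, against 17 to 62 genes for any other library of the 3 genotypes. It also held 2868 CPM of Xist, against 1324 and 1563 CPM in replicates B and C, and 29.8 CPM of the Y-linked Eif2s3y, against 58.6 and 56.6 CPM. The R90W/W libraries held 1025 to 1393 CPM of Xist and 72.1 to 84.4 CPM of Eif2s3y, where WT held 1671 to 1810 and 49.1 to 53.4 CPM, so the share of male and female RNA moved with genotype. R90W/+ replicate C carried 1313 CPM summed over 11 lens genes, mainly crystallins, where the lowest R90W/+ library held 42.9 CPM and the R90W/W libraries held 47.5 to 51.2 CPM. Their part in the results was not tested, beyond giving values without these libraries. Markers of the retinal cell types were present in every library, the 18 listed Muller glia genes and the 15 bipolar genes, for instance, summing to at least 2643 and 2949 CPM.

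Between R90W/W and R90W/+, 128 of 11959 genes (1.07%) passed both an FDR of 0.05 and a fold change of 2 and are termed called here. Of these, 95 (0.794%) were lower and 33 (0.276%) higher in R90W/W. Some of the 33 passed the filter only through R90W/W, the genotype where they were high. The largest falls were those of the cone opsin gene Opn1mw and the rod transducin gene Gnat1, and the largest rise was that of the collagen gene Col16a1. In all 128 genes the 3 R90W/W libraries did not overlap with the 3 R90W/+ libraries, which held for 41.2% of all genes tested. The 128 were picked on these same libraries, so the lack of overlap largely follows from the choice. At the FDR alone, with no limit on fold, 2976 genes (24.9%) differed, 1234 (10.3%) lower and 1742 (14.6%) higher in R90W/W. That split moved with the scaling, to 1532 lower and 1056 higher with median log-ratio scaling and to 1380 lower and 1346 higher with quantile normalization. Without R90W/+ replicate A, 123 genes were called lower and 37 higher, of which 121 were among the 128.

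**Figure D1:**
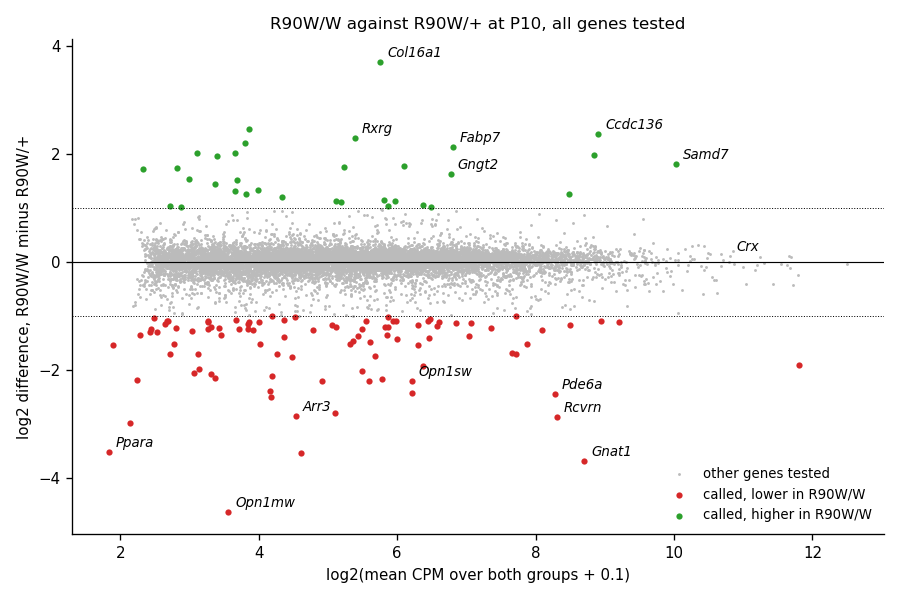
Each point is 1 of the 11959 genes tested. The horizontal axis is log2 of the mean CPM over both genotypes plus 0.1, and the vertical axis is the log2 difference R90W/W minus R90W/+; dotted lines mark 2-fold. The 95 genes called lower (red) reach -4.62, the 33 called higher (green) reach 3.71, and Crx sits at 0.13.

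The promoters of called genes were searched for TAATCC, the core of a CRX site, on either strand, in windows from 250 bases before to 50 bases after the transcript start (RefSeq, GRCm38.p6). The table matched 58 of the 95 genes called lower, and 12 of their 76 windows (15.8%) held the motif, against 631 of 11071 windows (5.70%) of all genes tested. For the genes called higher, 25 of 33 matched and 3 of 33 windows (9.09%) held it. The 6 windows below are a selection from called genes named in the text and may not be all such windows. They are shown as 30 bases on the gene's own strand with the motif in capitals. Each was found again by exact match in mm9, whose coordinates are given, and a GGATTA is the same motif on the opposite strand.
AI847159 (chr2:129006412-129006441): ttgattatagctTAATCCtaatctgaccag
Tnfrsf8 (chr4:144905088-144905117): tgggggagggaaGGATTAgggctgaacccg
Alpl (chr4:137322436-137322465): atccttcctgccTAATCCcaggagattaac
Nxnl2 (chr13:51266230-51266259): cagagcaggagtGGATTAggtggtgtggaa
Abca4 (chr3:121747308-121747337): gtaattagagggGGATTAtgcttgaagggg
Samd7 (chr3:30645064-30645093): aaggctaaggaaGGATTAtgctaaaggcta
Counted from the transcript start of its window, the motif began 20 bases before for AI847159, 38 for Tnfrsf8, 58 for Abca4, 63 for Alpl, 139 for Samd7 and 152 for Nxnl2. The Alpl window belongs to a start inside the gene, which spans chr4:137297648-137352299 on the minus strand. Samd7 rose in R90W/W and the other 5 genes fell. The match is a description of these letters, not a site.

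Of the 23 phototransduction genes, all tested, 11 were called lower in R90W/W and 1 higher, and 20 were lower and 3 higher at the FDR alone. Their median log2 difference was -0.97, beside 0.04 over all genes tested, and their summed level was 15943 to 18845 CPM in R90W/+ and 9048 to 9359 CPM in R90W/W. The list is a pathway list of the study.

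Opsins hold the light-absorbing retinal. Opn1mw, the medium wavelength opsin, was at 8.51, 31.2 and 28.5 CPM in R90W/+ replicates A, B and C and at 0.691, 0.877 and 0.572 CPM in R90W/W, where WT held 25.9, 25.03 and 21.1 CPM. Every R90W/W library was below 1 CPM, while R90W/+ replicates B and C were above all WT libraries and replicate A was below them. The difference of -4.62 (SE 0.37, limma adjusted p = 9.7e-07) was a 24.6-fold lower level in R90W/W. It was -5.22 without R90W/+ replicate A, -3.61 with 1 CPM added before logarithms and -3.81 with quantile normalization. Opn1sw, the short wavelength opsin, behaved otherwise in the heterozygote. It was at 220, 209 and 206 CPM in WT, 122, 118 and 126 CPM in R90W/+ and 24.3, 26.3 and 29.2 CPM in R90W/W. The 3 genotypes did not overlap, with R90W/+ at -0.80 from WT (adjusted p = 8.0e-07) and R90W/W a further -2.19 from R90W/+ (SE 0.06, adjusted p = 1.2e-10).

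Among the transducin subunits the rod alpha subunit Gnat1 fell most. It was at 505, 963 and 861 CPM in R90W/+ and at 55.1, 63.9 and 57.4 CPM in R90W/W, against 716, 666 and 626 CPM in WT. The R90W/+ libraries thus lay on both sides of WT and all R90W/W libraries far below, a difference of -3.67 (SE 0.17, adjusted p = 6.5e-09). Its cone counterpart Gnat2 passed the FDR at -0.97 but not the 2-fold limit. Gnb1 (-0.40) and Gngt1 (-0.64), the rod beta and gamma subunits, were also lower at the FDR alone. The cone gamma subunit Gngt2 went the other way, at 52.5, 55.3 and 51.6 CPM in R90W/+ and 167, 164 and 167.9 CPM in R90W/W. WT lay between them at 82.4, 82.6 and 85.6 CPM, so that 1 R90W allele went with a level below WT and a pair of them with a level above it (R90W/+ minus WT -0.65, adjusted p = 8.4e-06; R90W/W minus R90W/+ 1.65, SE 0.05, adjusted p = 7.7e-11). Gnb3, the cone beta subunit, was higher by 0.24 at the FDR alone.

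The phosphodiesterase 6 subunits fell to different degrees. Pde6a, the rod alpha subunit, was at 413, 587 and 573 CPM in R90W/+ and 98.9, 94.9 and 92.0 CPM in R90W/W, with WT at 559, 579 and 534 CPM. That is a difference of -2.44 (SE 0.10, adjusted p = 2.6e-09), while the other rod catalytic subunit Pde6b differed by -0.52 and the rod inhibitory subunit Pde6g by -1.11. The cone subunits Pde6c (-1.15) and Pde6h (-1.51) were both called lower. The CNG channel genes Cnga1 (-0.82), Cngb1 (-0.67) and Cnga3 (-0.75) were lower at the FDR alone, and the cone channel gene Cngb3 was higher by 0.60.

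Genes that end or tune the light response fell as well, 5 of 15 tested being called lower and 0 higher, with a median of -0.70, and some of these genes are on the phototransduction list too. Rcvrn, which encodes recoverin, was at 417, 637 and 623 CPM in R90W/+ and 74.0, 82.4 and 70.2 CPM in R90W/W, with WT at 550, 547 and 565 CPM. The R90W/+ mean did not differ from WT beyond its error (-0.01, 95% interval -0.26 to 0.23), whereas R90W/W was lower than R90W/+ by 2.86 (SE 0.12, adjusted p = 3.8e-09). Arr3, the cone arrestin gene, was at 25.4, 47.6 and 49.7 CPM in R90W/+ and 5.21, 5.36 and 5.57 CPM in R90W/W (-2.84, adjusted p = 2.1e-07). Guca1b, a guanylate cyclase activator, was at 17.3, 36.5 and 38.8 CPM in R90W/+ and 4.57, 5.26 and 5.34 CPM in R90W/W (-2.50, adjusted p = 3.6e-06). In both genes R90W/+ replicate A was the lowest of its group and still at least 3 times the highest R90W/W library. Slc24a1, the rod sodium, calcium and potassium exchanger gene, was called lower at -1.68, while Sag, the rod arrestin gene, differed by -0.40 and Guca1a by -0.87.

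**Figure D2:**
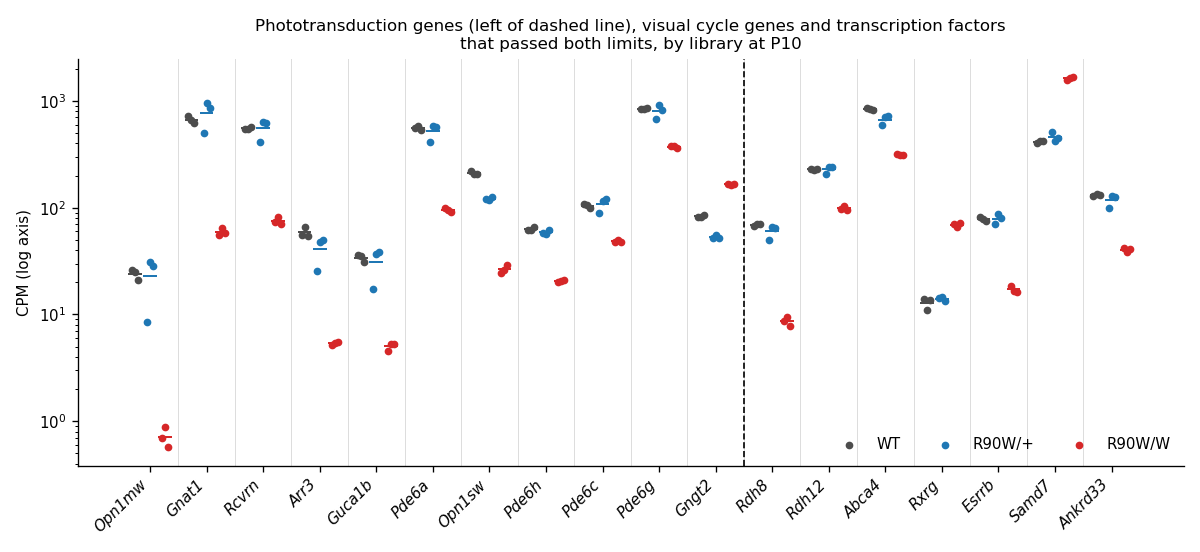
CPM on a log axis in each library (points, replicates A, B and C from left to right) and the group mean (bar) for called genes in WT, R90W/+ and R90W/W at P10. Phototransduction genes are left of the dashed line, and visual cycle genes and transcription factors right of it. R90W/+ differed from WT at the FDR in Opn1sw, Gngt2 and Abca4. It missed the FDR in Arr3, at -0.58 from WT, and in Rdh8, where all R90W/+ libraries lay below WT. R90W/W lies apart from both, and for Opn1mw the R90W/W libraries sit between 0.572 and 0.877 CPM.

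The visual cycle returns the spent retinoid of the opsins to its light-sensitive form. Of its 7 genes 3 were called, all lower in R90W/W. Rdh8, an all-trans-retinol dehydrogenase gene, was at 49.6, 66.5 and 64.6 CPM in R90W/+ and 8.62, 9.44 and 7.78 CPM in R90W/W, with WT at 67.3, 70.1 and 70.6 CPM (-2.78, SE 0.11, adjusted p = 1.5e-09). Rdh12, a second retinol dehydrogenase, was at 208, 240 and 240 CPM in R90W/+ and 97.5, 104 and 94.6 CPM in R90W/W. Its R90W/+ mean lay at WT (0.00, 95% interval -0.12 to 0.12). The retinoid transporter gene Abca4 was graded instead, at 857, 849 and 822 CPM in WT, 591, 702 and 718 CPM in R90W/+ and 317, 309 and 314 CPM in R90W/W (R90W/+ minus WT -0.34, adjusted p = 0.0052; R90W/W minus R90W/+ -1.09, adjusted p = 6.4e-08). Rdh11 (-0.30) and Rbp3 (-0.24) were lower, and Rdh10 (0.25) and Crabp1 (0.27) higher, at the FDR alone.

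Among 19 tested transcription factor genes of photoreceptors, 2 were called lower and 2 higher, and the median of -0.08 lay near that of all genes. Esrrb, a nuclear receptor gene of rods, was at 69.8, 88.1 and 79.3 CPM in R90W/+ and 18.5, 16.7 and 16.4 CPM in R90W/W, with WT at 81.6, 79.1 and 75.2 CPM (-2.19, SE 0.08, adjusted p = 1.1e-09). Ankrd33, a repressor gene of photoreceptors, fell by 1.54 on the log2 scale. Rxrg, the retinoid X receptor gene of cones, was at 14.1, 14.7 and 13.3 CPM in R90W/+ and 70.3, 65.6 and 72.1 CPM in R90W/W, and WT was at 13.98, 11.004 and 13.8 CPM (2.30, SE 0.07, adjusted p = 8.5e-11). Samd7, which encodes a photoreceptor protein linked to Polycomb repression, was at 516, 419 and 452 CPM in R90W/+ and 1582, 1641 and 1665 CPM in R90W/W (1.82, adjusted p = 8.1e-10). In all 4 no difference between R90W/+ and WT passed the FDR, the adjusted p ranging from 0.14 for Samd7 to 0.99 for Esrrb.

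The factors that define rods and the partners of CRX moved less. Nrl was lower by 0.39 (adjusted p = 0.00016), Otx2 was higher by 0.53 (adjusted p = 6.5e-05), and Nr2e3 differed by -0.09 (adjusted p = 0.37). Nr1d1 was higher by 0.61 and Neurod1 by 0.21. Rorb and Mef2c gave a further pattern: R90W/+ was below WT for Rorb (-0.30, adjusted p = 0.0017) and for Mef2c (-0.63, adjusted p = 0.0017), while R90W/W minus R90W/+ was -0.01 and -0.04. Mef2c, for instance, was at 20.8, 21.1 and 21.2 CPM in WT, 16.2, 12.9 and 11.9 CPM in R90W/+ and 13.2, 14.2 and 12.2 CPM in R90W/W, so the mutant genotypes overlapped below WT.

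In the list of photoreceptor metabolism 6 of 20 genes were called lower and 0 higher, with a median of -0.22. Ppara, the nuclear receptor of fatty acid oxidation, had the widest range: 19.3, 18.7 and 16.6 CPM in WT, 7.74, 5.89 and 5.77 CPM in R90W/+ and 0.266, 0.619 and 0.610 CPM in R90W/W. Both steps were large, with R90W/+ at -1.49 from WT (adjusted p = 8.5e-06) and R90W/W at -3.51 from R90W/+ (SE 0.25, adjusted p = 3.6e-07), the latter being -2.32 with 1 CPM added before logarithms and also with quantile normalization. It was 1 of 3 called genes that also passed both limits between R90W/+ and WT, beside Gckr, the glucokinase regulator (16.5, 6.85 and 2.67 CPM as means of WT, R90W/+ and R90W/W), and the connexin gene Gje1 (3.69, 8.93 and 22.5 CPM), both named after their values were seen. Ckmt1, a mitochondrial creatine kinase gene, was graded at means of 152 ± 4.6, 83.1 ± 18 and 32.0 ± 1.4 CPM (SD, n = 3 each), and Nxnl1, the gene of a rod-derived cone viability factor, at 179 ± 7.4, 132 ± 16 and 34.7 ± 2.5 CPM. Its relative Nxnl2 differed by -1.48 between R90W/W and R90W/+.

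Of 30 genes of the outer segment and cilium, 5 were called lower and 0 higher, and 26 were lower at the FDR alone (median -0.56). Fscn2, which encodes an actin-bundling protein of photoreceptors, was at 14.2, 16.8 and 19.5 CPM in R90W/+ and 3.40, 3.92 and 3.81 CPM in R90W/W (-2.14, adjusted p = 5.0e-08). Crb1, an apical polarity gene, was at 296, 335 and 327 CPM in R90W/+ and 99.2, 74.8 and 130 CPM in R90W/W (-1.69, adjusted p = 1.3e-06). Reep6 (-1.16) and the Usher syndrome gene Myo7a (-1.05) were also called lower. At the photoreceptor synapse 3 of 20 genes were called lower, namely the complexin gene Cplx4 (-1.12), the calcium binding protein gene Cabp4 (-1.09) and the adhesion gene Elfn1 (-1.08). Cabp4 lost its call without R90W/+ replicate B, where its difference was -0.98.

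The 10 largest falls also held genes outside the lists by function. Tnfrsf8, a receptor of the tumor necrosis factor family, was at 8.57, 7.93 and 6.71 CPM in R90W/+ and 1.28, 0.567 and 0.953 CPM in R90W/W (-2.98, adjusted p = 6.3e-07), with WT at 14.4, 14.4 and 12.6 CPM. The difference was -2.19 with 1 CPM added before logarithms and -2.33 with quantile normalization. AI847159 was at 35.1, 50.7 and 49.6 CPM in R90W/+ and 4.26, 3.46 and 3.58 CPM in R90W/W (-3.53, adjusted p = 1.1e-09), with WT above both at 63.9, 67.7 and 63.5 CPM.

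The largest rises were in genes of varied function. Col16a1, a fibril-associated collagen gene, was at 5.08, 4.17 and 4.20 CPM in WT, 9.67, 5.83 and 7.60 CPM in R90W/+ and 99.1, 94.3 and 107 CPM in R90W/W. The rise over R90W/+ was 13.1-fold (log2 3.71, SE 0.13, adjusted p = 8.1e-10), and R90W/+ was itself above WT by 0.74 (adjusted p = 0.011). Ccdc136 was at 182, 134 and 153 CPM in R90W/+ and 801, 761 and 846 CPM in R90W/W (2.37, adjusted p = 8.1e-10). Fabp7, which encodes a fatty acid binding protein, was at 44.3, 38.1 and 42.3 CPM in R90W/+ and 183, 179 and 184 CPM in R90W/W (2.13, adjusted p = 5.5e-11). For both genes R90W/+ overlapped with WT. Cltb, the clathrin light chain b gene, was at 180, 192 and 186 CPM in R90W/+ and 774, 714 and 722 CPM in R90W/W (1.98, adjusted p = 3.3e-11).

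The other 5 of the 10 largest rises, Rxrg aside, were of genes near or below 5 CPM in R90W/+. They were Irf5, an interferon regulatory factor gene (2.48), the transcriptional coactivator gene Myocd (2.21), the Wnt ligand gene Wnt9a (2.03), the retinoic acid hydroxylase gene Cyp26b1 (2.02) and the zinc finger gene Insm2 (1.97). Cyp26b1 was at 4.23, 3.66 and 2.32 CPM in R90W/+ and 14.1, 12.5 and 14.6 CPM in R90W/W, a difference between low levels. These 5 genes did not reach 5 CPM in all 3 libraries of WT or of R90W/+ and were not tested between them. They passed the filter only through R90W/W, the genotype where they were high, so their rises are a description.

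Lists of genes enriched in rods and in cones were taken by the study from other data. Of 231 tested rod-enriched genes, 40 were called lower and 1 higher, with a median of -0.41. Of 377 tested cone-enriched genes, 11 were called lower and 17 higher, with a median of 0.14. Over all genes tested, 0.794% were called lower and 0.276% higher, and the median was 0.04. The lower cone genes included Opn1mw and Arr3, and the higher ones Rxrg and Ccdc136. The 10 rod genes the study chose by specificity had 5 called lower and 0 higher, and its 10 cone genes, of which 8 were tested, 5 lower and 1 higher.

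No gene on the lists of other cell types was called. That held for the 9 horizontal, 10 bipolar, 9 amacrine and 9 ganglion genes tested of the study's own lists, and for 11 genes of progenitors. It also held for 17 tested genes of Muller glia, 15 of bipolar cells, 19 of ganglion and amacrine cells and 8 of horizontal cells. The same was true of 6 of microglia and macrophages, 12 of pigment epithelium, 15 of vessels and 7 of blood. With 1.07% of all genes called, lists this short would hold few or none, so the count of 0 says little about these cells. The medians of the lists of Muller glia and after ran from -0.09 for horizontal cells to 0.16 for blood, and those of the study's lists from -0.25 for horizontal to 0.16 for amacrine genes. Without R90W/+ replicate A the median was -0.08 for blood, -0.04 for bipolar cells (0.01 with it) and 0.30 for pigment epithelium (0.14 with it). At the FDR alone, 6 of 17 Muller glia genes and 6 of 19 ganglion and amacrine genes were higher in R90W/W and 0 lower, such as Apoe (0.46) and Gad2 (0.24), beside 14.6% of all genes higher and 10.3% lower. Genes of other lists were lower instead, 2 of 15 for bipolar cells with 0 higher, 2 of 8 for horizontal cells with 1 higher, and 3 of 9 for the study's horizontal genes with 0 higher. The summed Muller glia level was 2643 to 2806 CPM in WT, 3171 to 3419 CPM in R90W/+ and 3588 to 3800 CPM in R90W/W. Of the 14 tested genes of cell death and p53, 0 were called, again a short list beside a share of 1.07%. The largest difference there was that of Cdkn1a (0.73, adjusted p = 6.5e-05), a cell cycle inhibitor gene. On the glial stress list Egr1 rose by 0.87 (adjusted p = 5.1e-05) and was the only 1 of 9 genes past the FDR.

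**Figure D3:**
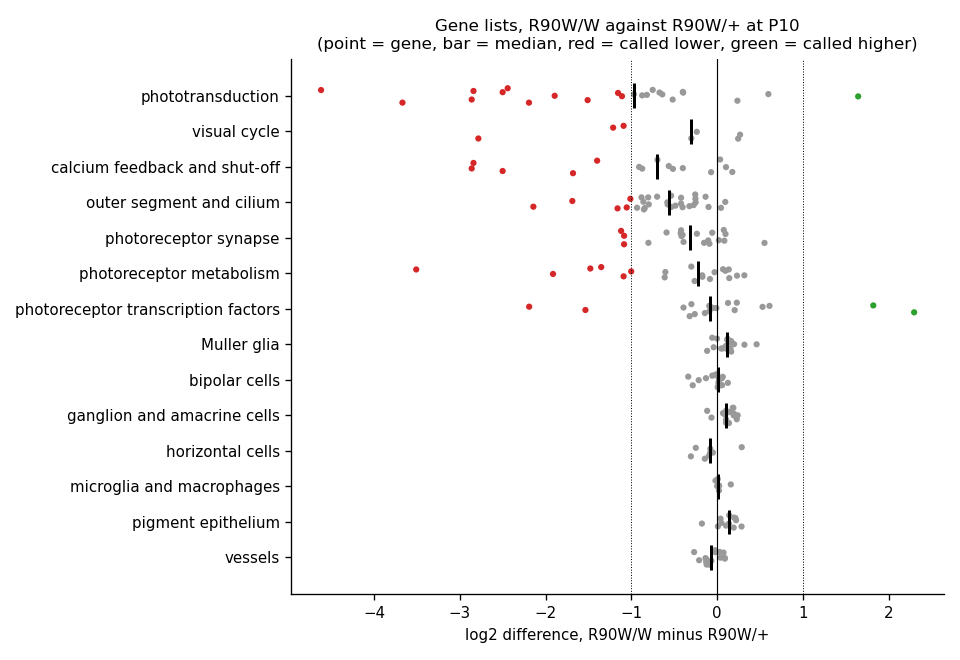
Log2 difference R90W/W minus R90W/+ for each tested gene (points) of 14 lists, with the list median (bar); red marks genes called lower and green genes called higher, and dotted lines mark 2-fold. Called genes fall in the 7 photoreceptor lists at the top, and the lists of other cell types lie between the 2-fold lines.

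The level of R90W/+ was then set between those of WT and R90W/W for the genes called between R90W/W and WT, a choice that did not use the R90W/+ libraries. Between R90W/W and WT, 260 of 12077 genes (2.15%) were called and 55.2% passed the FDR alone. On the scale where 0 is the WT level and 1 the R90W/W level in log2(CPM + 0.1), the median position of R90W/+ over these 260 genes was 0.28, and the middle 50% of genes lay from 0.13 to 0.48. R90W/+ departed from the midpoint on the WT side in 141 genes and on the R90W/W side in 14 genes, and in 105 genes no departure passed the FDR. Over all 12108 genes tested, 858 (7.09%) departed from the midpoint, 450 (3.72%) above it and 408 (3.37%) below. Above is the WT side only for a gene lower in R90W/W than in WT, so these shares are no baseline for the 141 and 14 genes. The counts over all genes moved with the libraries: without R90W/+ replicate A, 950 genes were above and 1012 below, and without replicate C 229 above and 185 below. The 141 and 14 are given with all libraries only.

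Among the genes called between R90W/W and R90W/+, the position could be set for 113. Its median was 0.13 for 88 genes called lower and 0.08 for 25 called higher, and all 113 lay below 0.5, the highest at 0.48. On the linear CPM scale the medians were 0.19 and 0.04, and 8 genes reached 0.5 or more. Of the 25 called higher, only 17 reached 5 CPM in all libraries of WT or of R90W/+. The others passed the filter only through R90W/W, where they were high. The 113 genes were picked for a distance between R90W/W and R90W/+, which pulls the position towards 0, so the values are a description. The median was 0.20 when R90W/+ replicate A alone was used, 0.10 for replicate B and 0.07 for replicate C. The 13 phototransduction genes with WT and R90W/W 2-fold apart had a median of 0.06.

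**Figure D4:**
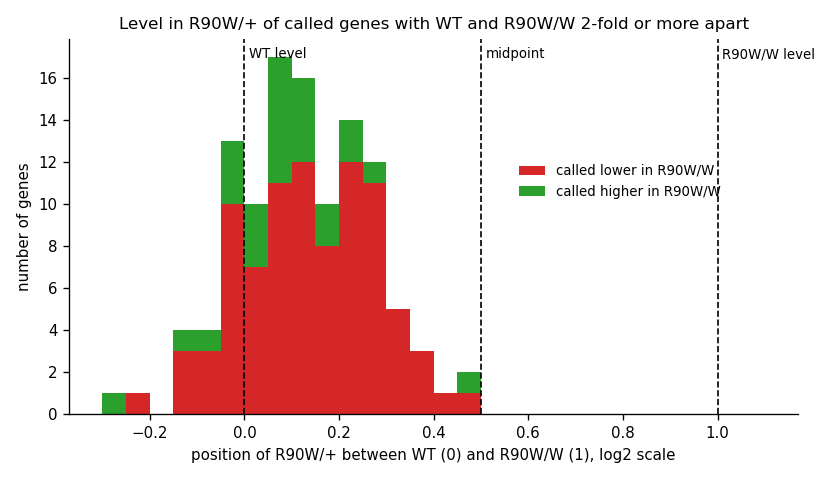
Number of called genes by the position of R90W/+ between WT (0) and R90W/W (1) on the log2 scale, for the 113 called genes with WT and R90W/W at least 2-fold apart (red, lower in R90W/W; green, higher). All lie left of the midpoint, and 23 lie below 0, where R90W/+ is past WT. Some of the green genes passed the filter only through R90W/W.

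R90W/+ was also set against WT directly for the called genes, which carry the same choice. Of the 128 called genes, 112 were also called between R90W/W and WT, and 104 of these were tested between R90W/+ and WT. In 42 of the 104, R90W/+ differed from WT at the FDR in the direction of R90W/W, against 11.7% of all genes past that FDR. In the other 62, no difference passed the FDR. The 95% interval of R90W/+ minus WT lay within 2-fold in all 62 and within 0.5 log2 units in 50, so smaller differences were not excluded there. Rcvrn, Rdh12, Esrrb and Pde6a were among the 62, with positions of 0.00, 0.00, 0.00 and 0.04. Opn1sw (0.27), Ppara (0.30), Ckmt1 (0.40), Elfn1 (0.28) and Abca4 (0.24) were among the 42. By list, 10 of 11 phototransduction genes, 4 of 4 transcription factors and 1 of 6 metabolism genes belonged to the 62, and the interval lay within 0.5 log2 units in 6 of those 10, in 4 of 4 and in 1 of 1. Arr3, for instance, missed the FDR at -0.58 with an interval of -0.97 to -0.19, and the difference between lists was not tested.

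In 6 called genes, R90W/+ and R90W/W lay on opposite sides of WT with both differences past the FDR. AA623943, Dhx32, Gngt2, St3gal3 and Tmem92 were below WT in R90W/+ and above it in R90W/W. The dopamine receptor gene Drd4 was at 31.9, 28.9 and 25.3 CPM in WT, 34.7, 55.1 and 55.4 CPM in R90W/+ and 21.7, 25.7 and 15.7 CPM in R90W/W. It was thus above WT in R90W/+ by 0.72 (adjusted p = 0.0056) and below it in R90W/W by 0.47 on the log2 scale (adjusted p = 0.0041), with R90W/+ replicate A nearest to WT. The 5 genes other than Gngt2 were chosen after their values were seen.

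The 14 genes on the R90W/W side of the midpoint, also named after their values were seen, were Psd2, Rabepk, Gm12802, Il33, Gm17327, Aldh1a7, Aqp4 and Gabrr2, and, below 5 CPM in at least 1 library of each mutant genotype, Dnm3os, Zan, Gm12394, Gm13301, Dock8 and Spp1. Psd2 was at 256, 257 and 266 CPM in WT, 73.9, 74.8 and 74.7 CPM in R90W/+ and 37.6, 39.7 and 43.7 CPM in R90W/W. Most of its distance from WT was present in R90W/+ (position 0.67, departure from the midpoint -0.46, limma adjusted p = 4.0e-06). E168d2/+ and E168d2/d2 lay below WT too, at means of 52.9 and 38.8 CPM. The water channel gene Aqp4 was at 17.1, 19.3 and 13.7 CPM in WT, 31.6, 41.4 and 38.3 CPM in R90W/+ and 36.4, 41.9 and 30.3 CPM in R90W/W. Its R90W genotypes overlapped, and R90W/W minus R90W/+ was -0.04. In E168d2/+ and E168d2/d2 its means were 39.0 and 49.6 CPM, also above WT. Rabepk went otherwise, with means of 49.6 and 51.0 CPM there beside 48.8 CPM in WT. The study names littermates as the source of WT for P21 only, and the part of the WT libraries in these positions was not tested. Gabrr2, a GABA receptor subunit gene, and the alarmin gene Il33 had positions of 1.17 and 0.89.

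The E168d2 allele gave a second homozygous and heterozygous pair at the same age, with no library shared, and 2.27% of genes were called between E168d2/d2 and E168d2/+. The difference (R90W/W minus R90W/+) minus (E168d2/d2 minus E168d2/+) passed both limits in 171 of 12181 genes (1.4%), being more negative for R90W in 68 (0.558%) and more positive in 103 (0.846%). Of the 128 genes called between R90W/W and R90W/+, 51 passed, 13 more negative and 38 more positive for R90W. For Rdh12 and Rdh8, R90W/W stopped well above E168d2/d2. Rdh12 was at 105, 95.3 and 68.4 CPM in E168d2/+ and 3.05, 2.93 and 2.55 CPM in E168d2/d2, so that the level in E168d2/+ was near that of R90W/W (97.5, 104 and 94.6 CPM). For Alpl, the alkaline phosphatase gene, R90W/+ was at 58.9, 91.9 and 86.9 CPM and R90W/W at 24.4, 25.5 and 20.6 CPM, whereas E168d2/+ (8.73, 8.01 and 6.08 CPM) and E168d2/d2 (10.1, 8.04 and 8.24 CPM) overlapped below both. E168d2/d2 replicate B held 0 CPM of Ddx3y and replicate C 2.96 CPM of Xist, so neither looked like the pool of males and females named in the labels, and the part of this in the difference was not tested.

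**Figure D5:**
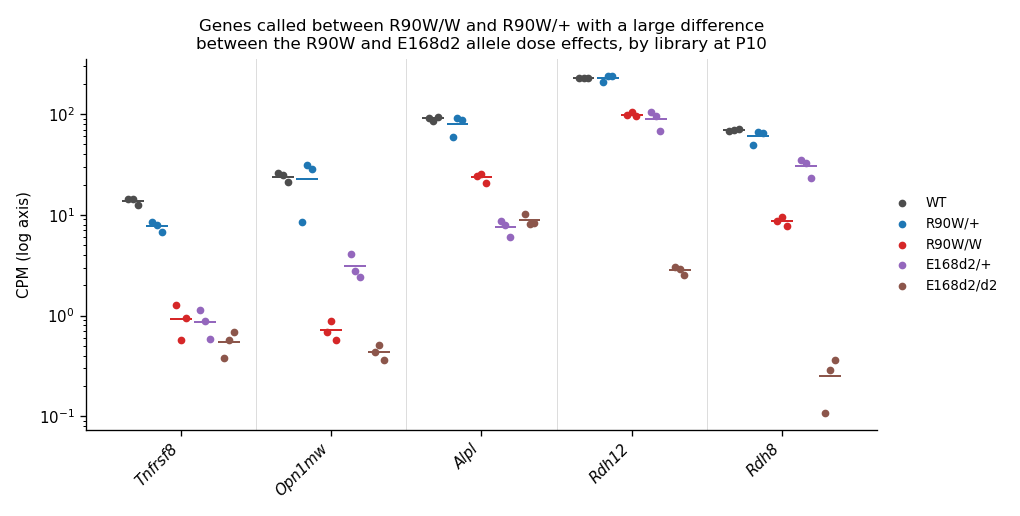
CPM on a log axis in each library (points) and group mean (bar) at P10 for 5 genes named for the difference between the allele dose effects of R90W and E168d2, which was among the largest in its direction over the genes called between R90W/W and R90W/+. Tnfrsf8, Opn1mw and Alpl drop between R90W/+ and R90W/W and are already low in E168d2/+, while Rdh12 and Rdh8 drop further between E168d2/+ and E168d2/d2 than between R90W/+ and R90W/W.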

How the data were processed

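Whole retinas at P10 were measured by mRNA sequencing with single reads. The authors used TopHat2 2.0.5 for alignment (build mm9) and HTSeq 0.6.1p1 for counting over UCSC gene models, and deposited CPM for genes that passed their filter. The methods state poly(A) selection, while the labels also name removal of ribosomal RNA. The authors also deposited log2 fold changes, mean log2 CPM, and p-value and FDR columns from edgeR 3.6.8 after TMM normalization, mutant against WT, which were not used here. Of the columns of per-sample CPM, 0 were left unused. The study lists a read number for each library, which is not given here. Reads on genes were estimated from CPM steps, and 5 CPM stood for 69.5 to 131 reads.

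CPM were taken as log2(CPM + 0.1), so differences of low genes are understated, and tested with limma 3.58.1 in R 4.3.3 (eBayes with a variance trend, two-sided, Benjamini-Hochberg over all genes tested) in the 6 libraries, or in those of the groups a comparison names. Called genes had an FDR of at most 0.05 and a fold change of at least 2. The steps were tested on simulated data. The replicate letters were not used to pair samples. Replicates of a group differed by more than sampling noise. Named genes were members of the phototransduction, visual cycle and transcription factor lists, the 10 largest falls and rises, the 5 largest departures from the midpoint and the 3 largest differences from E168d2 each way among called genes, and up to 4 members of each other list; exceptions are stated. The members and lists were chosen with earlier results of these data known. Symbols of 20 genes had turned into dates and were not named, and 1 gene is not reported here. Promoters came from a RefSeq table on GRCm38.p6, and all coordinates given are mm9. Python 3.11.15, numpy 2.4.6 and pandas 2.3.3 were also used.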

Additional observations from a re-analysis of the deposited data

Results flagged for a closer look

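In 5 genes called between R90W/W and R90W/+, the difference between homozygote and heterozygote itself differed between the R90W and E168d2 alleles (limma interaction, adjusted over 12181 genes). The 5 genes were picked from those called on the same R90W libraries. Tnfrsf8 (log2 difference -2.41, SE 0.41, adjusted p = 0.0012), Opn1mw (-2.08, SE 0.53, adjusted p = 0.025) and Alpl (-1.94, SE 0.23, adjusted p = 3.1e-05) were more negative for R90W. In Tnfrsf8 and Opn1mw the E168d2 groups were low, at means of 0.869 and 0.546 CPM for Tnfrsf8 and 3.08 and 0.439 CPM for Opn1mw in E168d2/+ and E168d2/d2. Alpl had means of 7.61 and 8.80 CPM there. Rdh12 (3.70, SE 0.17, adjusted p = 8.5e-10) and Rdh8 (3.69, SE 0.33, adjusted p = 1.9e-06) were more positive for R90W, with means of 89.4 and 2.84 CPM for Rdh12 and 30.2 and 0.253 CPM for Rdh8 in E168d2/+ and E168d2/d2. In both genes the 3 libraries of E168d2/d2 were all below the 3 of E168d2/+.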

How the results depend on the processing

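The 128 calls stayed within 1.5 times under every alternative, from 115 to 164, and so did the 171 calls for the difference between alleles; of 43 named called genes, 42 kept their call under all 15 alternatives and 0 changed direction. At the FDR alone, median log-ratio scaling gave 1056 genes higher in R90W/W; leaving out 1 library gave 1790 (without R90W/W replicate C) to 4126 (without R90W/+ replicate A) genes in all, 891 to 1691 lower and 884 to 2435 higher. The midpoint counts fell to 444 (235 above, 209 below) with all 6 groups of P10, E168d2neo/+ among them, in a single fit. They ran from 414 (229 above, 185 below, without R90W/+ replicate C) to 1962 (950 above, 1012 below, without R90W/+ replicate A) with 1 library left out. The replicate letters did not pair the samples: deviations of same-letter libraries correlated at 0.02, 0.11 and 0.003, and with the letter as a block 95 genes were called lower and 33 higher. The cause of these shifts was not tested. With 3 libraries a group and 1 age, small differences of low genes could not be told from noise.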
